A study of Mus musculus with 6 samples.

Results

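The 10 genes described here are cytochrome P450 family 4 fatty acid hydroxylases of mouse liver: 6 of the Cyp4a subfamily (Cyp4a10, Cyp4a12a, Cyp4a12b, Cyp4a14, Cyp4a31 and Cyp4a32), 3 of the Cyp4f subfamily (Cyp4f13, Cyp4f14 and Cyp4f15) and Cyp4v3. They were chosen by gene symbol, with earlier results of these data known, and are 10 of the 18429 genes with a count in any library. The livers came from 6 Mettl14f/f male mice fed a high-fat diet (HFD) from 8 weeks of age. After 10 weeks of HFD, 3 mice were transduced with AAV8-TBG-GFP (labelled WT) and 3 with AAV8-TBG-Cre (labelled METTL14 KO), and livers were collected 8 weeks later. All 6 mice carried the floxed Mettl14 alleles and received an adeno-associated virus. The thyroxine-binding globulin (TBG) promoter is active in hepatocytes, so Cre can delete Mettl14, a subunit of the RNA m6A methyltransferase, in those cells and not in the other cells of the liver. Bulk RNA-seq measured each liver once. The libraries are called GFP1, GFP2 and GFP3 (controls) and Cre1, Cre2 and Cre3, by vector and labelled replicate, and values are listed in that order.

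Enzymes of this family add a hydroxyl group to the terminal (omega) carbon of fatty acids, using electrons that cytochrome P450 reductase passes to the heme. The product is oxidized to a dicarboxylic acid, which peroxisomes shorten by beta-oxidation. In the mouse liver Cyp4a10 and Cyp4a14 are known as targets of PPARα, the nuclear receptor that fatty acids activate, Cyp4a12a as a male-biased gene whose enzyme hydroxylates arachidonic acid, and the Cyp4f enzymes for the inactivation of leukotrienes.

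The summed counts per library lay between 20356466 and 21010527. The targeted gene Mettl14 had 6.18 ± 0.326 CPM (counts scaled to the TMM-normalized library size, SD, n = 3 mice) in GFP livers and 5.07 ± 0.275 in the Cre livers (log2 fold change -0.29, standard error (SE) 0.15, adjusted p = 0.336 from the quasi-likelihood test of edgeR). Its Cre values (4.86 to 5.38 CPM) lay below all controls (5.81 to 6.43 CPM), a lack of overlap seen in 27.0% of all genes tested. By immunoblot the paper reports less METTL14 protein in livers given AAV8-TBG-Cre, and by dot blot less total RNA m6A. Those livers were taken sooner after transduction than the 8 weeks used here. Since the mRNA did not clearly fall in the test, groups are called by their labels throughout. The library names have 2 forms that neither the labels nor the paper explains: GFP1, GFP2 and Cre1 are named with 2 digits (short), and GFP3, Cre2 and Cre3 with 4 digits (long). In bulk tissue, fewer cells of a type and less RNA per cell cannot be told apart.

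The 6 Cyp4a genes lie within 323.5 kb of chromosome 4 (GRCm38.p6, 115299046 to 115622507), the 3 Cyp4f genes within 261.8 kb of chromosome 17 (32685631 to 32947415) and Cyp4v3 on chromosome 8 (45305801 to 45333163). Several genes of the Cyp4a cluster are close copies, which matters for what an expected count can tell apart, since that count divides the fragments that fit more than 1 gene. Cyp4a12a and Cyp4a12b differed at 23 of 1527 coding bases in the GENCODE vM1 transcripts (98.5% identity), and their longest identical stretch was 342 bases. The following 120 bases (coding positions 644 to 763) hold as many of those differences as any stretch of this length, and capitals mark the bases that differ.
Cyp4a12a: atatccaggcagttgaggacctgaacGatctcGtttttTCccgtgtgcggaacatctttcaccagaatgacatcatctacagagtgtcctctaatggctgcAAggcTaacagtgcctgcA
Cyp4a12b: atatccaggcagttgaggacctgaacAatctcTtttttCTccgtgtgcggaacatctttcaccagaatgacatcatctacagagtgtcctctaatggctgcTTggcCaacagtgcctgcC
Even in this stretch only 8 of the 120 bases differ. Cyp4a10 differed from Cyp4a31 at 52 and from Cyp4a32 at 43 of 1530 coding bases (96.6% and 97.2% identity). Across the 3 genes 77 coding positions differed, and 15 of them lie in the stretch below (coding positions 160 to 279), with capitals where at least 1 gene differs from the others.
Cyp4a10: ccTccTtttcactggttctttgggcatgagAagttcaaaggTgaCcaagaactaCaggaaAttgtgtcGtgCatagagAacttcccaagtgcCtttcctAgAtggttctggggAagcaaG
Cyp4a31: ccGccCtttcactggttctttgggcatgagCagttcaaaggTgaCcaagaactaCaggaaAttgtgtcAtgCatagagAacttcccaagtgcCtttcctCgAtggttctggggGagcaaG
Cyp4a32: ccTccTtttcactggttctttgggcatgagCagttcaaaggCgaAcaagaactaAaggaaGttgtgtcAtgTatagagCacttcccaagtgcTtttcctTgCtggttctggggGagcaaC
Cyp4a14 stands further off, with 74.6% to 75.8% identity to the other Cyp4a genes, and the 3 Cyp4f genes were 75.1% to 81.1% identical to one another. Cyp4v3 was the only member whose expected counts were whole numbers in every library (within 0.005), and the other 9 genes had counts with a fraction, which mark fragments divided between genes or transcripts. For Cyp4a14 a fraction was seen in Cre2 (58389.01) and Cre3 (78139.68) only, and its counts in the other libraries were whole.

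Cyp4a10 and Cyp4a14 dominated the family in most livers, and their levels set how large its total was. The 10 genes summed to 1023, 773 and 1876 FPKM (fragments scaled by transcript length and library size, a level per length) in GFP1, GFP2 and GFP3, and to 604, 3041 and 4141 FPKM in Cre1, Cre2 and Cre3. Cyp4a10 and Cyp4a14 made up 54.8%, 35.9% and 79.3% of this sum in the GFP libraries and 18.0%, 85.0% and 86.8% in the Cre libraries. Cre1 had the lowest total and the lowest share, and Cre3 the highest of both. The members took 0.143% to 0.948% of all counts of a library. By mean FPKM over the 6 libraries the order was Cyp4a10 (813), Cyp4a14 (622), Cyp4v3 (166), Cyp4f14 (85.5), Cyp4f15 (83.2), Cyp4a32 (37.7), Cyp4f13 (35.6), Cyp4a12a (30.9), Cyp4a31 (23.0) and Cyp4a12b (11.9). Cyp4a10 exceeded Cyp4a14 in every library, by 1.03 to 2.80 times. Cyp4v3 likewise exceeded Cyp4f14, and Cyp4f15 exceeded Cyp4a32, in all 6 libraries. The other neighbours in that order changed places between libraries, so their steps were within the spread between mice. In Cre1 and GFP2 the highest member was Cyp4v3, not Cyp4a10.

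**Figure D1:**
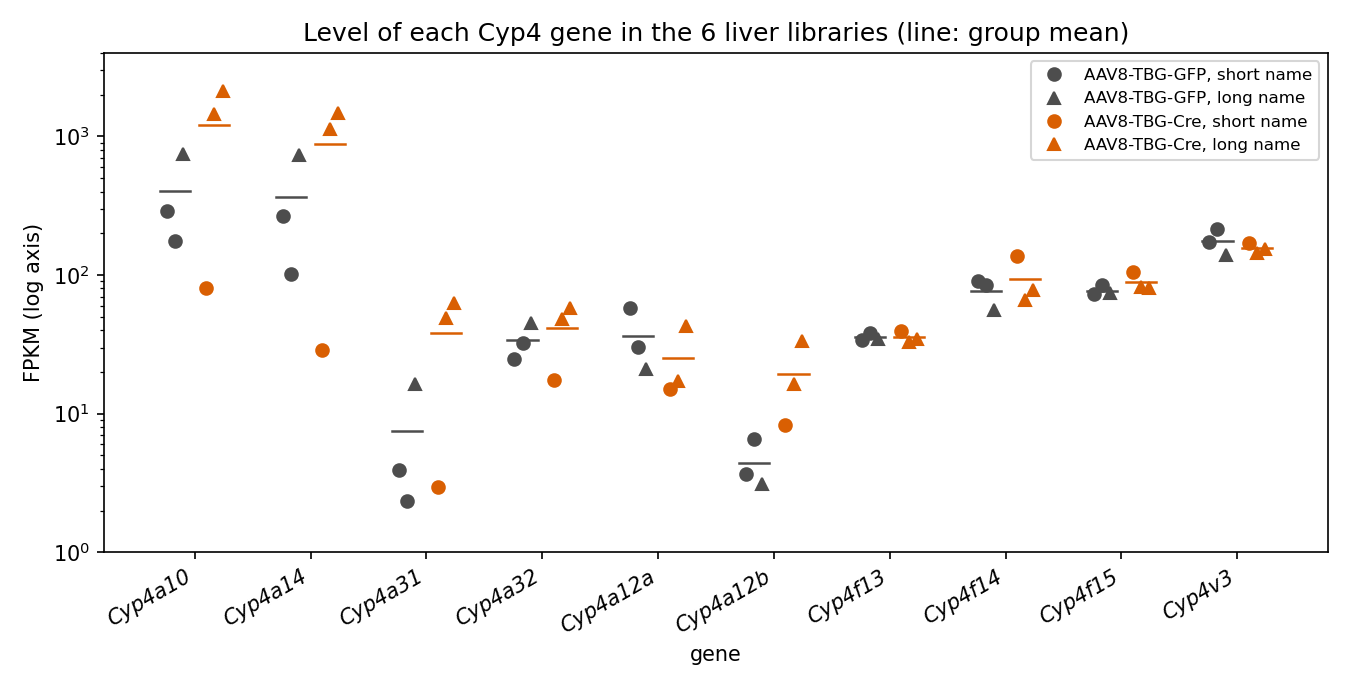
FPKM on a log axis for each of the 10 genes, with 1 point per library, grey for AAV8-TBG-GFP and orange for AAV8-TBG-Cre, circles for short and triangles for long library names, and a line at each group mean. Cyp4a10, Cyp4a14, Cyp4a31 and Cyp4a32 were higher in every triangle than in every circle, whereas the grey and orange points separated for Cyp4a12b only.

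The comparison of AAV8-TBG-Cre with AAV8-TBG-GFP asks how liver expression differed between the vectors. All 10 members had enough counts to be tested among 13431 genes. Fold changes come from TMM-normalized counts, whereas the levels listed below are FPKM unless given in CPM, so the ratio of listed levels can differ from the fold change. With an unadjusted p under 0.05 and at least a 1.2-fold difference, 1 member was called higher (Cyp4a12b) and 0 lower, against 20.5% of all genes tested in either direction, 12.0% higher and 8.41% lower. At a Benjamini-Hochberg adjusted p under 0.05 edgeR called 0 members against 0.931% of all genes, and DESeq2 called 1, Cyp4a12b, against 7.43% of the genes to which it gave an adjusted p. The vectors did not overlap for 1 member, against 27.0% of genes. The median log2 fold change over the 10 members was 0.12, beside -0.0062 over all genes tested, and 7 of the 10 values were above 0.

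Cyp4a10, a lauric acid hydroxylase and a classical PPARα target, spanned 26.5 times between its lowest and highest library. It stood at 292, 176 and 753 FPKM in GFP1, GFP2 and GFP3 and at 80.0, 1461 and 2117 FPKM in Cre1, Cre2 and Cre3. The Cre group thus held both the lowest and the 2 highest livers, on either side of all 3 controls. Cyp4a10 ranked 34 and 41 among all genes by FPKM in Cre3 and Cre2 and 867 in Cre1. Between vectors the log2 fold change was 1.40 (SE 1.00, edgeR adjusted p = 0.476), and an exact two-sided permutation test gave p = 0.4, so the difference was within the spread between mice. Without Cre1 it was 1.95 and passed the unadjusted threshold, and it was 0.59 without Cre3 and 2.23 without GFP3.

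Cyp4a14, also a PPARα target and an omega-hydroxylase of fatty acids, had the widest range of the family, 51.7 times. Its FPKM were 268, 102 and 734 in GFP1, GFP2 and GFP3 and 28.6, 1123 and 1478 in Cre1, Cre2 and Cre3. The ordering of the 6 livers was the same as for Cyp4a10, with Cre1 lowest. Its log2 fold change was 1.06 (SE 1.16, edgeR adjusted p = 0.653), with 0.30 without Cre3 and 2.09 without GFP3. The longest identical coding stretch that it shares with Cyp4a10 was 23 bases.

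Cyp4a31 and Cyp4a32 are the near copies of Cyp4a10. Cyp4a31 had 3.95, 2.33 and 16.3 FPKM in GFP1, GFP2 and GFP3 and 2.97, 48.9 and 63.2 in Cre1, Cre2 and Cre3. Cre1 again lay among the low controls while the other 2 Cre livers were above all of them. Its log2 fold change was the largest of the family at 2.16 (SE 1.06, edgeR adjusted p = 0.296), and it passed the unadjusted threshold without Cre1 (2.71) or without GFP3 (3.46) and stood at 1.46 without Cre3. Cyp4a32 varied less, by 3.33 times, with 24.6, 32.2 and 45.3 FPKM in the controls and 17.5, 48.4 and 58.2 in the Cre livers. The groups overlapped, and the log2 fold change was 0.10 (SE 0.42, edgeR adjusted p = 0.915), below 0 without Cre3 (-0.32) or GFP1 (-0.10). With the counts of Cyp4a10, Cyp4a31 and Cyp4a32 added before the fit, so that fragments shared among them no longer mattered, the log2 fold change of the sum was 1.36 (edgeR adjusted p = 0.470).

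Cyp4a12b was the only member that differed between the vectors beyond the unadjusted threshold. It had 3.68, 6.52 and 3.10 FPKM in GFP1, GFP2 and GFP3 and 8.28, 16.4 and 33.7 in Cre1, Cre2 and Cre3. Every Cre liver was above every control, with Cre3 the highest and Cre1 closest to the controls. Its increase on the log2 scale was 1.99 (SE 0.53, edgeR unadjusted p = 0.00581 and adjusted p = 0.0970), and the exact two-sided permutation test gave p = 0.1, the smallest that 3 mice against 3 allow. DESeq2 gave an adjusted p of 0.00148, and over the alternatives that keep it apart from Cyp4a12a the adjusted p ran from 0.00148 to 0.269. Without Cre1 edgeR gave 0.0311, in a fit that called 6.78% of all genes. The log2 fold change was 1.23 to 2.37 on leaving out each mouse, lowest without Cre3.

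Cyp4a12a, its near copy and a male-biased arachidonic acid hydroxylase, had 58.3, 30.5 and 21.0 FPKM in the controls and 15.2, 17.1 and 43.1 in the Cre livers. The groups overlapped, with the highest value in GFP1 and the lowest FPKM in Cre1 (in CPM, 36.2 in Cre1 and 35.2 in Cre2). Between vectors the log2 fold change was -0.66 (SE 0.50, edgeR adjusted p = 0.503), and past the unadjusted threshold at -1.39 without Cre3. Cyp4a12b made up 5.94%, 17.6% and 12.8% of the FPKM of the pair in GFP1, GFP2 and GFP3, and 35.3%, 49.0% and 43.8% in Cre1, Cre2 and Cre3. The shares of the 2 vectors did not overlap, as the levels did not for 27.0% of all genes tested. Added together, the pair had 156, 94.5 and 64.3 CPM in the controls and 55.7, 68.8 and 188 CPM in the Cre livers. These sums overlapped, their log2 fold change was -0.011 (edgeR adjusted p = 0.993), and with near copies merged 0 members were called. The files divide the fragments of the pair by estimate, and how much of the shift within it is in the mRNA was not tested.

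**Figure D2:**
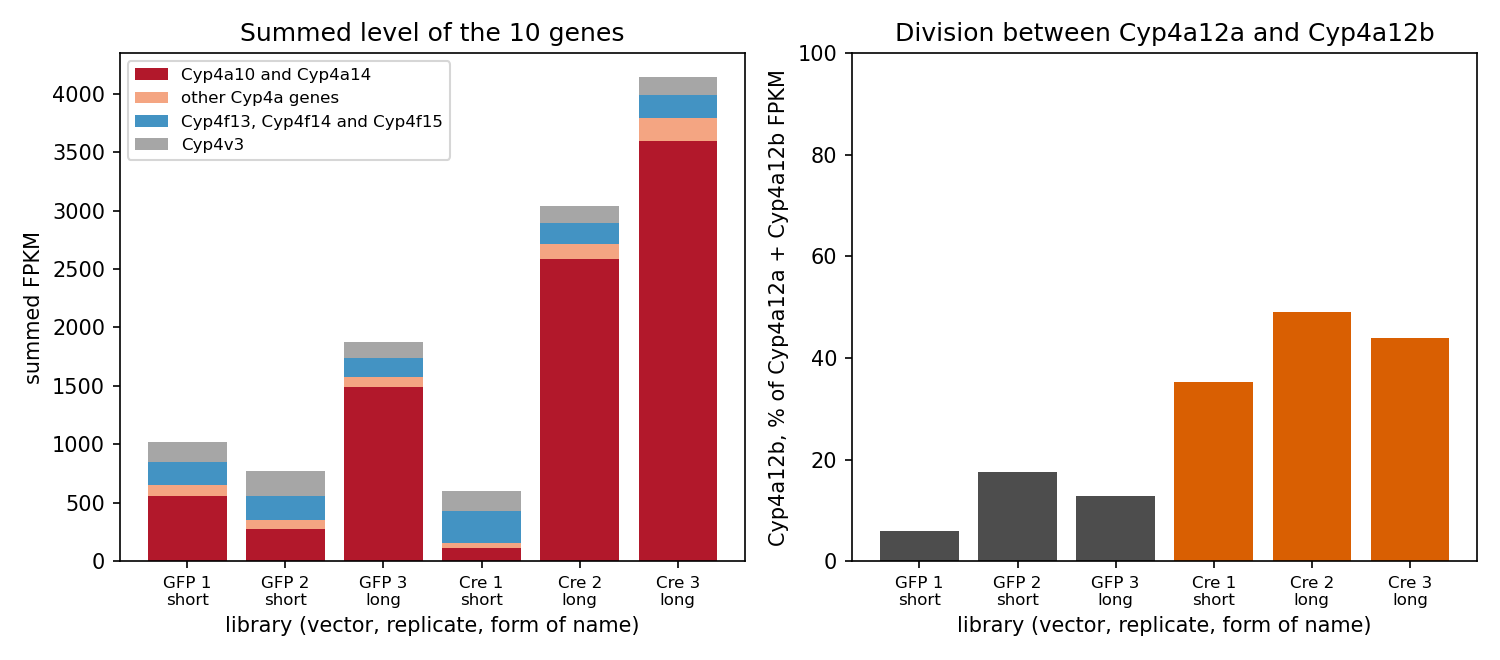
Left, stacked bars of the summed FPKM of the 10 genes in each library, by subfamily, and right, the percentage of the Cyp4a12a and Cyp4a12b FPKM that was assigned to Cyp4a12b. The total ran from 604 FPKM in Cre1 to 4141 FPKM in Cre3 through the Cyp4a10 and Cyp4a14 segment, and the Cyp4a12b percentage was 5.94% to 17.6% in the GFP libraries and 35.3% to 49.0% in the Cre libraries.

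The Cyp4f genes and Cyp4v3 spanned 1.19 to 2.46 times between their lowest and highest library, and the Cyp4a genes 3.33 to 51.7 times. Cyp4f13 had 34.2, 38.2 and 34.5 FPKM in GFP1, GFP2 and GFP3 and 39.2, 32.9 and 34.4 in Cre1, Cre2 and Cre3. These values overlapped and had the narrowest range of the family, with a log2 fold change of -0.17 (SE 0.14, edgeR adjusted p = 0.533). Cyp4f14, the hepatic omega-hydroxylase of leukotriene B4, had 90.9, 85.1 and 55.6 FPKM in the controls and 137, 66.5 and 78.3 in the Cre livers. Its highest level was in Cre1, the liver with the lowest Cyp4a10, and its lowest FPKM in GFP3. In CPM Cre2 was lowest (121, against 132 in GFP3). Across vectors the log2 fold change was 0.14 (SE 0.32, edgeR adjusted p = 0.843) and turned to -0.27 without Cre1 and -0.05 without GFP3. The counts of Cyp4f14 were divided among 5 transcripts, of which NM_022434 took 46.5% to 53.8% in every library, whereas NM_001204333 ranged from 0.00744% to 33.8%, so only the gene's total is used here.

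Cyp4f15, another hydroxylase of the same cluster, had 73.2, 84.2 and 74.6 FPKM in the controls and 104, 81.8 and 80.8 in the Cre livers. Cre1 was again the highest, the groups overlapped, and the log2 fold change was 0.04 (SE 0.16, edgeR adjusted p = 0.908), below 0 without Cre1 (-0.12) or GFP1 (-0.02). Cyp4v3, the mouse counterpart of the human gene mutated in Bietti crystalline dystrophy, had 174, 216 and 139 FPKM in the controls and 171, 145 and 154 in the Cre livers. In FPKM the control range of Cyp4v3 enclosed all 3 Cre values, but in CPM Cre2 (363) lay below all controls (448 to 673). Its log2 fold change was -0.33 (SE 0.20, edgeR adjusted p = 0.394).

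The form of the library name separated 4 of the 6 Cyp4a genes, and the vector 1. The comparison by name was added after the values were seen, and took long against short names with the vector as the other factor in the same edgeR fit. The 3 libraries with long names were above the 3 with short names for Cyp4a10, Cyp4a14, Cyp4a31 and Cyp4a32, and below them for Cyp4f14 and Cyp4v3, so that 6 of 10 members did not overlap, against 21.6% of all genes. At the unadjusted threshold 4 members were higher with a long name, against 8.12% of genes, and 1 was lower, against 7.79%. The mean of Cyp4a10 was 183 FPKM over the short-named and 1444 FPKM over the long-named libraries, and the log2 fold change 3.09 (SE 0.68, edgeR adjusted p = 0.0828). For Cyp4a14 the log2 fold change was 3.75 (SE 0.91, edgeR adjusted p = 0.103). Cyp4a31, with 3.29 (SE 0.44, edgeR adjusted p = 0.0273), was the only member past the adjusted threshold, against 1.39% of genes. Without Cre1, Cre2 or GFP2 it did not pass, and on leaving out each mouse its adjusted p was 0.0277 to 0.123. DESeq2 called 5 members at that threshold, against 5.58% of the genes to which it gave an adjusted p. Cyp4a32 and Cyp4f14 moved in opposite directions, with log2 fold changes of 1.14 (edgeR adjusted p = 0.0735) and -0.79 (adjusted p = 0.0731). Cyp4a12a (-0.03), Cyp4a12b (0.55), Cyp4f13 (-0.15), Cyp4f15 (-0.22) and Cyp4v3 (-0.34) did not pass the unadjusted test.

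**Figure D3:**
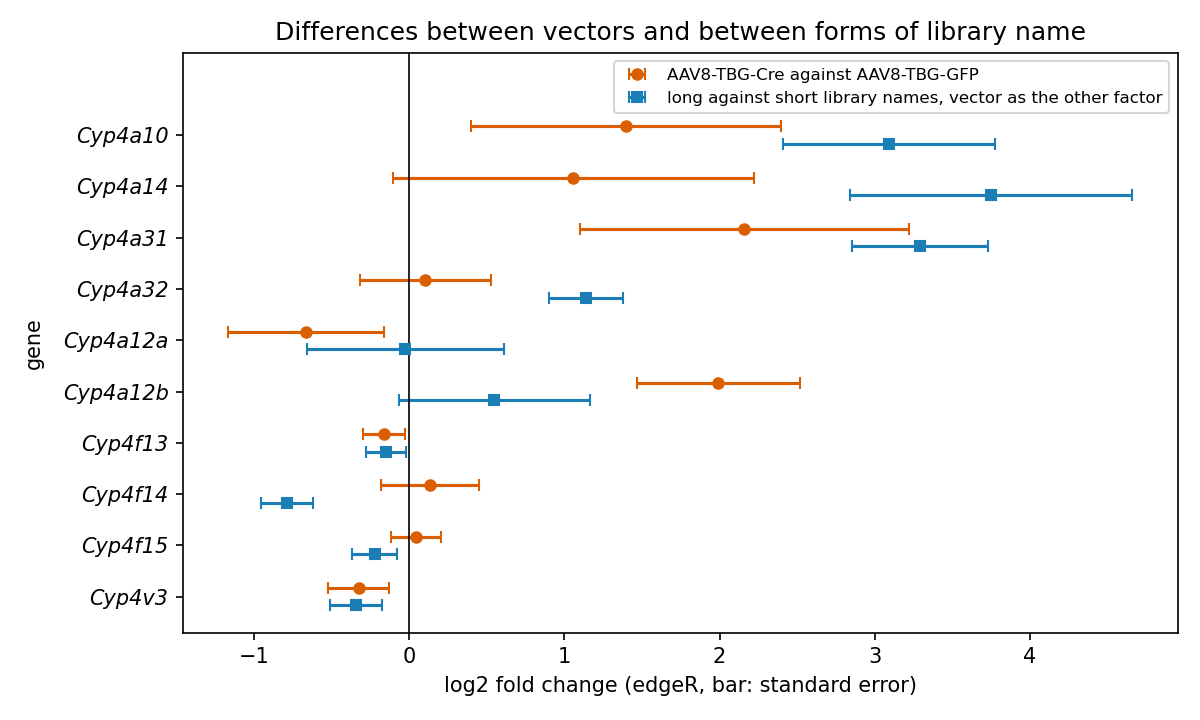
Log2 fold change of each gene with its standard error from edgeR. Orange circles show AAV8-TBG-Cre against AAV8-TBG-GFP in the fit without the name form. Blue squares show long against short library names with the vector as the other factor. For Cyp4a10 and Cyp4a14 the squares lie at 3.09 and 3.75 and the circles at 1.40 and 1.06, while Cyp4a12b has its larger value, 1.99, between the vectors. In the fit of the squares the vector values of these genes were -0.30, -1.08 and 1.68.

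Since 2 of 3 Cre livers and 1 of 3 controls have a long name, the vector comparison changed when the form of the name entered the fit. The log2 fold change between vectors then became -0.30 for Cyp4a10, -1.08 for Cyp4a14 and -0.38 for Cyp4a32, all of them reversed in sign and with adjusted p of 0.844, 0.556 and 0.403 from edgeR. For Cyp4a31 it was 0.81 (adjusted p = 0.339) and for Cyp4a12b 1.68 (unadjusted p = 0.0282, adjusted p = 0.192), so Cyp4a12b stayed past the unadjusted threshold. Within the short names Cyp4a10 was lower in AAV8-TBG-Cre, by a log2 ratio of means of -1.64, and within the long names higher, by 1.03. For Cyp4a14 these ratios were -2.78 and 0.61, and for Cyp4a12b 0.60 and 2.82. A test of the interaction of vector and name form passed an unadjusted p of 0.05 for 4 members (Cyp4a10, Cyp4a14, Cyp4a31 and Cyp4a12b), against 5.79% of genes, and an adjusted p of 0.05 for 0 members in edgeR, against 0.00745% of genes. Only 1 Cre library has a short name and only 1 control a long one, so this contrast rests on single livers on both sides.

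Cyp4a10, Cyp4a14, Cyp4a31 and Cyp4a32 shared 1 profile across the livers. Over the 6 libraries, which share the groups and name forms above, Pearson's r of log2 CPM was 0.98 between Cyp4a10 and Cyp4a14, 0.95 between Cyp4a10 and Cyp4a31 and 0.91 between Cyp4a10 and Cyp4a32. Cyp4f14 ran against them, with r of -0.82 to Cyp4a10 and -0.86 to Cyp4a14. Among the Cyp4f genes r was 0.60 to 0.80, while Cyp4a12a and Cyp4a12b gave -0.06 to each other. Of 12356 other genes with a mean of at least 1 CPM, those most like the sum of Cyp4a10, Cyp4a31 and Cyp4a32 were Zfand2a, Zmym1 and Hsd17b11, each with r of 0.99. Those most like Cyp4a14 were Exosc6 (r of 0.99), Cltc (0.98) and Nup98 (0.98). The sum of Cyp4a12a and Cyp4a12b was most like Kctd21 (0.98), Pgm3 (0.97) and 2310015A10Rik (0.96), and Cyp4f14 most like Cep57, Myo1e and Dctpp1, each with r of 0.99. With 6 libraries such values are descriptions of these livers.

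Of the 10 other Cyp4 genes in the tables, Cyp4f40 and Cyp4x1 were at 0 FPKM in all 6 libraries, and Cyp4a29, Cyp4a30b, Cyp4f37 and Cyp4f39 stayed at or below 0.18 FPKM and were not tested. Cyp4f16 passed the adjusted threshold. It had 1.54, 1.67 and 1.58 FPKM in GFP1, GFP2 and GFP3 and 4.46, 5.65 and 3.59 in Cre1, Cre2 and Cre3. Its values did not overlap between vectors, as in 27.0% of all genes tested. Its log2 fold change was 1.33 (edgeR adjusted p = 0.0330), and the adjusted p by name form was 0.995. On leaving out each mouse the adjusted p was 0.0260 to 0.137, and it passed without Cre1 only. Cyp4f18, known as a leukotriene hydroxylase of myeloid cells, had 0.55, 0.52 and 0.74 FPKM in the controls and 0.95, 3.77 and 1.34 in the Cre livers. The groups did not overlap, and the log2 fold change was 1.52 (edgeR adjusted p = 0.142), past the unadjusted threshold only, with 0.84 without Cre2. For Cyp4b1 and Cyp4f17 the values were -0.57 and -0.24 (edgeR adjusted p = 0.263 and 0.394).

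Of 12 genes that supply electrons and heme to P450 enzymes, 4 fell between vectors at the unadjusted threshold (Cyb5b, Cyb5a, Urod and Cpox), 0 rose, and 0 passed the adjusted threshold in edgeR. Over all genes tested, 8.41% fell and 12.0% rose at the unadjusted threshold. All 12 values were below 0, with a median of -0.26 beside -0.0062 over all genes. Cyb5b, the outer mitochondrial membrane cytochrome b5, stood at -0.68 on the log2 scale (edgeR adjusted p = 0.0814), and Cyb5a, the microsomal form that aids P450 reactions, -0.37 (adjusted p = 0.180). Without Cre3 or any 1 control Cyb5a was not past the unadjusted threshold (-0.35 to -0.40). Por, which encodes cytochrome P450 reductase, had 824, 850 and 456 CPM in GFP1, GFP2 and GFP3 and 846, 530 and 464 in Cre1, Cre2 and Cre3. Its levels were lower in the 3 long-named libraries than in the 3 short-named ones, the opposite of Cyp4a10. A lack of overlap by name form was seen in 21.6% of all genes tested. Por differed by -0.82 on the log2 scale by name form (edgeR adjusted p = 0.0456) and -0.21 by vector (adjusted p = 0.744). Its adjusted p by name form was 0.0472 to 0.234 on leaving out each mouse, past the threshold without Cre2 only.

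Aldehyde dehydrogenases, acyl-CoA synthetases and peroxisomal beta-oxidation enzymes act after the P450 step. Of 34 such genes tested between vectors, 8 fell and 0 rose at the unadjusted threshold, against 8.41% and 12.0% of all genes. Their median log2 fold change was -0.28. Pex11a, a peroxisomal membrane protein that promotes peroxisome division, passed the adjusted threshold, with 72.4, 80.1 and 98.1 CPM in the controls and 30.7, 42.7 and 36.0 in the Cre livers (log2 fold change -1.20, edgeR adjusted p = 0.0344). No Cre liver reached the lowest control of Pex11a, a lack of overlap seen in 27.0% of all genes tested. On leaving out each mouse its adjusted p was 0.0253 to 0.137, past the threshold without Cre1 only. By name form 14 of the 34 were higher and 0 lower with a long name, against 8.12% and 7.79% of all genes. Crot and Crat, the peroxisomal and mitochondrial carnitine acyltransferases, passed the adjusted threshold there (log2 fold change 1.43 and 1.27, adjusted p = 0.0224 and 0.0190), and were named after their values were seen. The call was lost without Cre1, GFP2 or GFP3 for both, and without GFP1 for Crot (adjusted p up to 0.169 and 0.164).

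The list of PPARα and its target genes shares 7 genes with the previous one. Between vectors 7 of 34 fell and 0 rose at the unadjusted threshold (median log2 fold change -0.19), against 8.41% and 12.0% of all genes. Pex11a was the only call at the adjusted threshold. Ppara itself had 606, 615 and 572 CPM in the controls and 446, 371 and 437 in the Cre livers. These values did not overlap, as in 27.0% of all genes tested, and the log2 fold change was -0.52 (edgeR adjusted p = 0.0970). By name form 20 of the 34 were higher and 1 was lower (Ppargc1b) with a long name at the unadjusted threshold, against 8.12% and 7.79% of all genes. The median log2 fold change was 0.52, beside 0.013 over all genes. Besides Crat, Acot2 (1.42, edgeR adjusted p = 0.0337) and Vnn1 (0.89, adjusted p = 0.0445) passed the adjusted threshold, again named after their values were seen, and both calls held without Cre2 only (adjusted p up to 0.215 and 0.269). By name form Ppara itself stood at -0.12 (adjusted p = 0.719). The comparisons by vector and by name form use the same 6 libraries, so their lists are not independent of each other.

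Sex-biased and growth hormone genes are given because Cyp4a12a is male-biased. Over all genes tested, 8.41% fell and 12.0% rose between vectors at the unadjusted threshold. Of 19 male-biased genes 4 fell between vectors (Elovl3, Hsd3b5, Mup7 and Cyp2u1) and 0 rose, with a median of -0.36. By name form 5 of the 19 were lower and 1 was higher with a long name, against 7.79% and 8.12% of all genes. The median by name form was -0.64. Elovl3, a fatty acid elongase, had the smallest p between vectors (log2 fold change -2.22, edgeR adjusted p = 0.0149). It had 50.8, 68.5 and 70.8 CPM in the controls and 11.7, 11.8 and 17.3 in the Cre livers. All 3 Cre livers lay well under the controls, a lack of overlap seen in 27.0% of all genes tested. Its adjusted p was 0.0166 to 0.0836 on leaving out each mouse, above the threshold without Cre2 or GFP2. Of 16 female-biased genes 3 rose (Ntrk2, Prom1 and Cyp2a4) and 4 fell (Cyp2b13, Cyp2b9, Gpc1 and Acot4), with a median of 0.04 and 0 adjusted calls in edgeR. Cyp2b13 had 6.76, 3.27 and 10.2 CPM in the controls and 0, 0.739 and 0.144 in the Cre livers. It stood at -4.41 on the log2 scale (edgeR adjusted p = 0.0553) and at -3.86 to -6.43 on leaving out each mouse, the last without Cre2. Ntrk2 stood at 1.96 (edgeR adjusted p = 0.0581) and Prom1 at 2.35 (adjusted p = 0.0587), or 1.76 without Cre2. Of 16 genes of growth hormone receptor and STAT5 signalling, Socs3 rose (1.06) and Stat5a (-0.47), Prlr (-0.62) and Ghr (-0.46) fell at the unadjusted threshold, with 0 adjusted calls in edgeR. Socs3 did not pass without GFP1 (0.91) or GFP3 (1.01), nor with the name form as covariate (0.89). Its lowest value on leaving out each mouse was 0.48, without Cre3, its highest liver. Prlr did not pass without Cre1 (-0.58), Cre3 (-0.59), GFP1 (-0.55) or GFP3 (-0.44).

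Among 18 genes of leukotriene and other eicosanoid metabolism, substrates of the Cyp4f and Cyp4a enzymes, 5 rose (Pla2g4a, Alox5ap, Alox12, Ptgr1 and Cyp2c44) and 3 fell (Pla2g6, Cyp2c29 and Cyp2j5) between vectors at the unadjusted threshold. The shares over all genes tested were 12.0% and 8.41% at this threshold. Pla2g6, a calcium-independent phospholipase A2, passed the adjusted one, with 91.3, 80.7 and 77.6 CPM in the controls and 51.3, 40.0 and 38.5 in the Cre livers (log2 fold change -0.94, edgeR adjusted p = 0.0380). On leaving out each mouse the adjusted p was 0.0173 to 0.150, past the threshold without Cre1 only. The median of the list was -0.15.

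**Figure D4:**
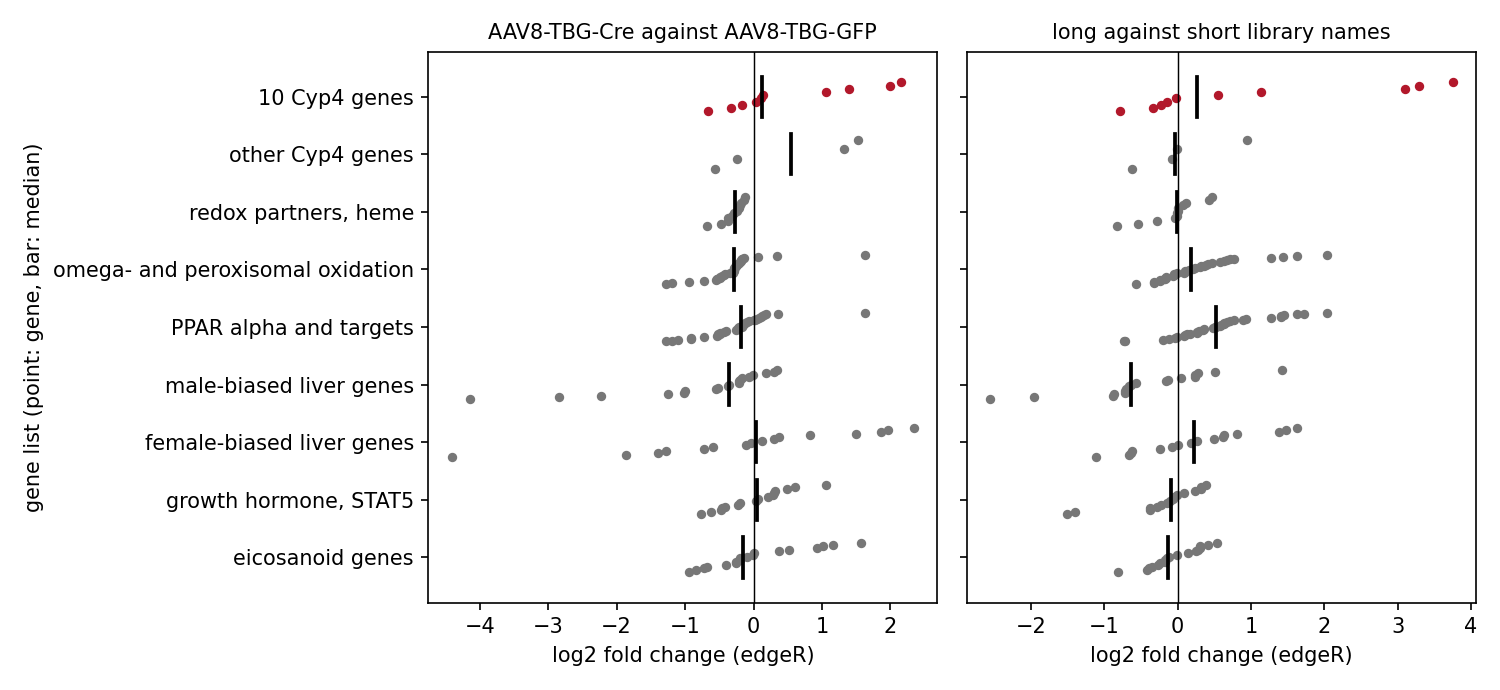
Log2 fold changes from edgeR of every tested gene of each list, with the median as a black bar and the 10 Cyp4 genes in red. The left panel is between vectors, in the fit without the name form. The right panel is between long and short library names, with the vector as the other factor. PPARα and its targets have a median of -0.19 on the left and 0.52 on the right, and the 10 Cyp4 genes 0.12 and 0.26.

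Markers of other liver cells moved with the vector, where 12.0% of all genes rose and 8.41% fell at the unadjusted threshold. All 8 tested of 9 cholangiocyte markers rose at the unadjusted threshold, and their summed level was 73.5 to 130 CPM in the controls and 311 to 585 CPM in the Cre livers. Of 9 markers each, 6 of macrophages and Kupffer cells rose (214 to 249 against 332 to 524 CPM), as did 4 of stellate cells and fibroblasts (239 to 366 against 467 to 972 CPM). The 8 hepatocyte markers summed to 85066 to 106202 CPM in the controls and 73462 to 94697 CPM in the Cre livers, with 1 higher and 1 lower. Of 5 neutrophil markers tested 3 rose and 1 fell (14.8 to 15.8 against 19.3 to 21.6 CPM). Adipocyte markers summed to 10.2 to 26.0 against 1.81 to 2.72 CPM, with 1 of 2 tested genes lower. T and NK cell markers summed to 1.31 to 1.98 against 2.17 to 4.52 CPM, with 1 of 2 tested genes higher, and B cell markers to 1.33 to 1.47 against 1.59 to 3.96 CPM, with the 1 tested gene higher. Of 9 endothelial markers 1 fell (207 to 340 against 219 to 259 CPM). Ms4a1 and Retnlg had a count of 0 in at least 1 library. The part of these shifts in the values of Cyp4a12b, Cyp4f16 and Cyp4f18 was not tested. Between name forms the hepatocyte sums overlapped (85066 to 92482 CPM with short and 73462 to 106202 CPM with long names), as did those of cholangiocytes, macrophages and stellate cells. The endothelial sum did not, at 259 to 340 CPM with short and 207 to 243 CPM with long names, and its part in the Cyp4a values was not tested. Of all genes tested, 21.6% did not overlap between name forms.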

How the data were processed

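Total liver RNA of 6 mice was sequenced on the DNBseq platform. For every transcript the authors deposited expected counts, estimates that divide fragments shared between transcripts, and FPKM, also given per gene. The submitters' processing notes name HISAT2, Bowtie2, RSEM and mm10, whereas STAR, HTSeq and DESeq2 are named in the methods of the paper, all without versions.

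Expected counts were summed by NCBI gene ID and rounded. Libraries were grouped by the vector in their labels, and no 2 of a group were alike within counting noise (chi-square per gene at least 26.5). Genes were tested with the quasi-likelihood test of edgeR 4.0.16 (R 4.3.3) after TMM and filterByExpr, with Benjamini-Hochberg adjustment over 13431 genes and standard errors from the quasi-F statistic. The p-values measure the spread between mice. Alternatives were DESeq2 1.42.0, RLE or upper quartile normalization, other filters, a fold of 1.5, the replicate number as a block, the name form as covariate, merged near copies, limma 3.58.1 on log2(FPKM + 1) or log2(FPKM + 0.1) and leaving out each mouse. Scripts were tested on simulated counts. Coding sequences are GENCODE vM1 transcripts matched by name, and positions are RefSeq GRCm38.p6.

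Named were all members, Mettl14, the other Cyp4 genes, genes of each list with an adjusted p under 0.05 or otherwise the 3 smallest p, Ppara and Por, and the 3 genes most correlated with 4 members or sums. Marker lists covered hepatocytes, cholangiocytes, macrophages, stellate cells, endothelial cells, T and NK cells, B cells, neutrophils and adipocytes. The members and lists were chosen with earlier results of these data known.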

Additional observations from a re-analysis of the deposited data

Results flagged for a closer look

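For Cyp4a10, Cyp4a14 and Cyp4f15 the CPM of the vectors did not overlap within the short-named or within the long-named libraries, and lay in opposite order in the 2 sets. In FPKM this did not hold for Cyp4f15. With long names GFP3 had 74.6 FPKM and the Cre livers 81.8 and 80.8, so that Cre was higher in both sets. The ratio of means also had opposite signs for Cyp4a12a (-1.64 within short and 0.33 within long names), Cyp4a31 (-0.17 and 1.57), Cyp4a32 (-0.79 and 0.0087) and Cyp4f13 (0.022 and -0.27), but there the vectors overlapped within at least 1 of the sets. The difference between the log2 fold changes (long minus short) was 2.67 for Cyp4a10 (standard error 0.64, unadjusted p = 0.00470, adjusted p = 0.682 from edgeR's interaction term), with a log2 ratio of means of -1.64 within short and 1.03 within long names. For Cyp4a14 it was 3.39 (standard error 0.85, unadjusted p = 0.00596, adjusted p = 0.760 from edgeR), with -2.78 and 0.61. For Cyp4f15 it was -0.43 (standard error 0.26, unadjusted p = 0.148, adjusted p = 0.895 from edgeR), with 0.32 and -0.11, and within the long names GFP3 had 176.9 CPM and the Cre livers 150.2 and 176.7 CPM. None of the 3 passed the adjusted threshold, and each rests on 1 AAV8-TBG-Cre library with a short name and 1 AAV8-TBG-GFP library with a long name. With 1 library against 2 in each set, a lack of overlap is easily reached, and the share of all genes with this pattern is not given here.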

How the results depend on the processing

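The limits are 3 mice per vector, an unexplained library name form that is unevenly divided between the vectors, and near copies whose fragments were divided by estimate. Of the 10 members, 1 was called at the unadjusted threshold, and 2 without the count filter (Cyp4a31 also, log2 fold change 2.15), 0 with near copies merged (Cyp4a12a and Cyp4a12b as a sum, -0.011), and 1 to 3 on leaving out each mouse. The 3 were reached without Cre1, when Cyp4a10 and Cyp4a31 were added. At the adjusted threshold 0 were called, 1 by DESeq2, and 0 to 1 on leaving out each mouse (Cyp4a12b without Cre1, adjusted p = 0.0311 from edgeR). Over all genes these fits called 125, 1157 with DESeq2, 928 without Cre1 and 0 without Cre2 or GFP2 (1897 and 2079 at the unadjusted threshold). With the name form as a covariate the log2 fold change of Cyp4a10, Cyp4a14, Cyp4a32 and Por turned to -0.30, -1.08, -0.38 and 0.071. Leaving out each mouse gave 0.59 to 2.23 for Cyp4a10, -1.39 to -0.19 for Cyp4a12a, 1.23 to 2.37 for Cyp4a12b, 0.30 to 2.09 for Cyp4a14, 1.46 to 3.46 for Cyp4a31, -0.32 to 0.46 for Cyp4a32, -0.27 to 0.38 for Cyp4f14 and -0.12 to 0.16 for Cyp4f15. Cyp4a32 turned negative without Cre3 (-0.32) or GFP1 (-0.10), Cyp4f14 without Cre1 (-0.27) or GFP3 (-0.05) and Cyp4f15 without Cre1 (-0.12) or GFP1 (-0.02). The cause of these changes was not tested.

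Same-numbered replicates did not deviate together (correlations of 0.01, -0.26 and 0.21), so the numbers were not taken as pairs. With the replicate number as a block 1 member was called at the unadjusted and 0 at the adjusted threshold, calls over all genes at the adjusted threshold went from 125 to 7, and Cyp4a32 moved to -0.011.

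Between long and short names 5 members passed the unadjusted threshold, 3 with near copies merged. At the adjusted threshold it was 1, against 5 with DESeq2, 0 with near copies merged and 0 to 1 on leaving out each mouse (0 without Cre1, Cre2 or GFP2).

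Calls in the lists at the unadjusted threshold moved as follows. Redox partners and heme synthesis (4) gave 1 with each limma setting, 1 at 1.5-fold and 1 to 4 on leaving out each mouse. Omega- and peroxisomal oxidation (8) gave 14 with DESeq2, 18 with the name form as covariate, 5 with limma on log2(FPKM + 1) or log2(FPKM + 0.1), 3 with limma without a filter, 3 at 1.5-fold and 4 to 10 on leaving out each mouse. PPARα and its targets (7) gave 17 with the name form, 4 with limma without a filter and 4 to 7 on leaving out each mouse. The other Cyp4 genes (2) gave 1 with limma without a filter. Growth hormone and STAT5 genes (4) gave 2 with limma without a filter, 2 at 1.5-fold and 1 to 6 on leaving out each mouse. Eicosanoid genes (8) gave 5 with both filtered limma settings and 4 to 8 on leaving out each mouse, and male-biased genes (4) gave 2 to 6. The limma settings on filtered FPKM moved the median log2 fold change of all genes to 0.11 and 0.14.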
